A study of Mus musculus with 8 samples.

Results

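The comparison described here is the difference between 2 knockout effects in mouse peritoneal macrophages: the effect of deleting Fra-1 minus the effect of deleting Fra-2. Each effect was the log2 level in knockout cells minus that in cells of littermates carrying the floxed allele without Cre, so a positive difference means that a gene stood higher, relative to its own controls, without Fra-1 than without Fra-2. All 8 arrays of the study entered the comparison, and 23420 of 55681 probes (42.1%) were well above background on each of the 8, so that both effects could be measured. These probes gave 19746 features, 1 per named gene or per probe without a symbol. Of these, 11931 carried a gene symbol, out of 21154 genes named on the array. The 4 groups, with 2 mice each, were Fra-1lox/lox MxCre-/+ knockouts, their Fra-1lox/lox controls, Fra-2lox/lox LysMCre-/+ knockouts and their Fra-2lox/lox controls, all male or female, 8 weeks old and on a 129/C57Bl6 background. Cells were washed out of the peritoneal cavity and plated overnight, and RNA was taken from those that adhered. Only the Fra-1 line is labelled as elicited with thioglycollate, an irritant that draws monocytes into the cavity.

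Fosl1 encodes Fra-1 and Fosl2 encodes Fra-2, which are Fos-related subunits of AP-1, the dimeric transcription factor that binds the motif TGANTCA together with a Jun partner. Neither has the transactivation domain of c-Fos, and both are induced by growth factor and inflammatory signals, in macrophages among other cells. LysM Cre is active in myeloid cells, whereas Mx Cre is switched on by interferon in many cell types. The gene deleted, the Cre driver and the thioglycollate label all go with the line, so their contributions to the difference of effects cannot be told apart. Adherent lavage cells are a mixture, in which fewer cells of a type and less RNA per cell cannot be told apart either.

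Before scaling, the 75th percentile signal of the arrays lay between 315 and 470 intensity units, and 47.7% to 57.6% of probes were well above background. The first Fra-2 knockout array was lowest on both counts and stood apart on the second principal component (6.34% of the variance), while the first component (80.9%) separated the lines. Arrays of 1 group correlated at 0.987 to 0.995 over the features, knockouts and controls of 1 line at 0.982 to 0.994, and arrays of different lines at 0.925 to 0.937. The arrays came from 2 slides, and the second slide held no Fra-1 control. The only Fosl1 probe was not well above background on either Fra-1 knockout array, so it was outside the 19746 features. Its level was at least 3.91-fold lower in the Fra-1 knockouts (measured mean -4.48) than in their controls (-2.35). The Fosl2 probe that was above background throughout read 5.51 and 5.57 in the Fra-2 controls and 6.43 and 7.14 in the Fra-2 knockouts, against the label, whereas the dimmer Fosl2 probe, above background on 4 arrays, was 1.27 lower in the Fra-2 knockouts. Where these probes lie relative to the deleted exons is not known from the sources used here, so the Fosl2 probes do not check that label.

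None of the 19746 features differed between the 2 effects at an adjusted p under 0.05 (limma, Benjamini-Hochberg; 0.0% called), and the smallest adjusted p was 0.168. At an unadjusted p under 0.05 there were 1782 features (9.02%), of which 1099 (5.57%) had the higher effect in the Fra-1 line and 683 (3.46%) the lower. Leaving out single arrays gave 0 to 16 features called, the 16 without the second Fra-2 knockout array. The mean of both effects can be large where only 1 line moves, so it does not by itself measure what the deletions shared. It also gave 0 calls (0.0%), with 1554 features (7.87%) at an unadjusted p under 0.05 and a smallest adjusted p of 0.170. Without the second Fra-2 knockout array that count was 18. Taken singly, the Fra-1 effect gave 0 calls (0.0%), with 1563 features (7.92%) at an unadjusted p under 0.05, and the Fra-2 effect 5 (0.0253%), with 1712 (8.67%). The Fra-2 calls numbered 0 to 109 with 1 array left out, and 0 with a term for the slide in the fit. The median standard error of the difference was 0.23 on the log2 scale, with a median unadjusted 95% half-width of 0.54. In simulated data, 9.2% of differences of 1 log2 unit and 69.2% of those of 2 units passed the adjusted threshold. Each simulated run held 200 changed features, with differences of 1, 2, 4 or 8 units. The adjusted threshold depends on how many features change and by how much, so these shares need not hold for the measured arrays. Most differences of 1 unit or less were thus not detectable with 2 arrays a group. Every gene below is therefore given with its values, and none of the differences named passed the adjusted threshold.

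Over all features the 2 effects were nearly unrelated. Pearson's r between them was -0.01 and Spearman's rho -0.06, as a description over 19746 features that share arrays, and 47.0% of the features had the same sign in both lines. The effects were of similar breadth, with a standard deviation of 0.32 in the Fra-1 line and 0.34 in the Fra-2 line. The median effect was 0.05 without Fra-1 and -0.01 without Fra-2, and 57.4% of the differences were positive.

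Features were sorted into direction classes by a descriptive rule: both knockout arrays of a line beyond both of its control arrays, in each line, with both effects at least 0.5 on the log2 scale (1.41-fold). By this rule 48 features (0.243% of all) were higher without Fra-1 and lower without Fra-2, and 42 (0.213%) were lower without Fra-1 and higher without Fra-2. A further 47 (0.238%) were higher and 78 (0.395%) lower in both knockouts. Probes without a symbol were counted singly, so some loci count more than once in a class. In the class lower in both, for example, several such probes read the same locus on chromosome 15. Of the 616 features that met the rule upward in the Fra-1 line (3.12%), 7.79% met it downward and 7.63% upward in the Fra-2 line. Of the 845 that met it downward without Fra-1 (4.28%), 4.97% met it upward and 9.23% downward without Fra-2, and the rest met it in the Fra-1 line alone. In the Fra-2 line 536 features met it upward (2.71%) and 812 downward (4.11%). Without a size limit the 4 classes held 1204 (6.1%), 461 (2.33%), 851 (4.31%) and 483 (2.45%) features in the same order, so that opposite directions held 8.43% and like directions 6.76% of all features. The classes changed with single arrays: the first held 27 features without the first Fra-1 control and 164 without the second Fra-2 knockout, and the second held 48 to 242, the most again without the second Fra-2 knockout. The class higher in both held 33 to 87, the most without the first Fra-2 control, and the class lower in both 76 to 199, the most without the first Fra-2 knockout.

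**Figure D1:**
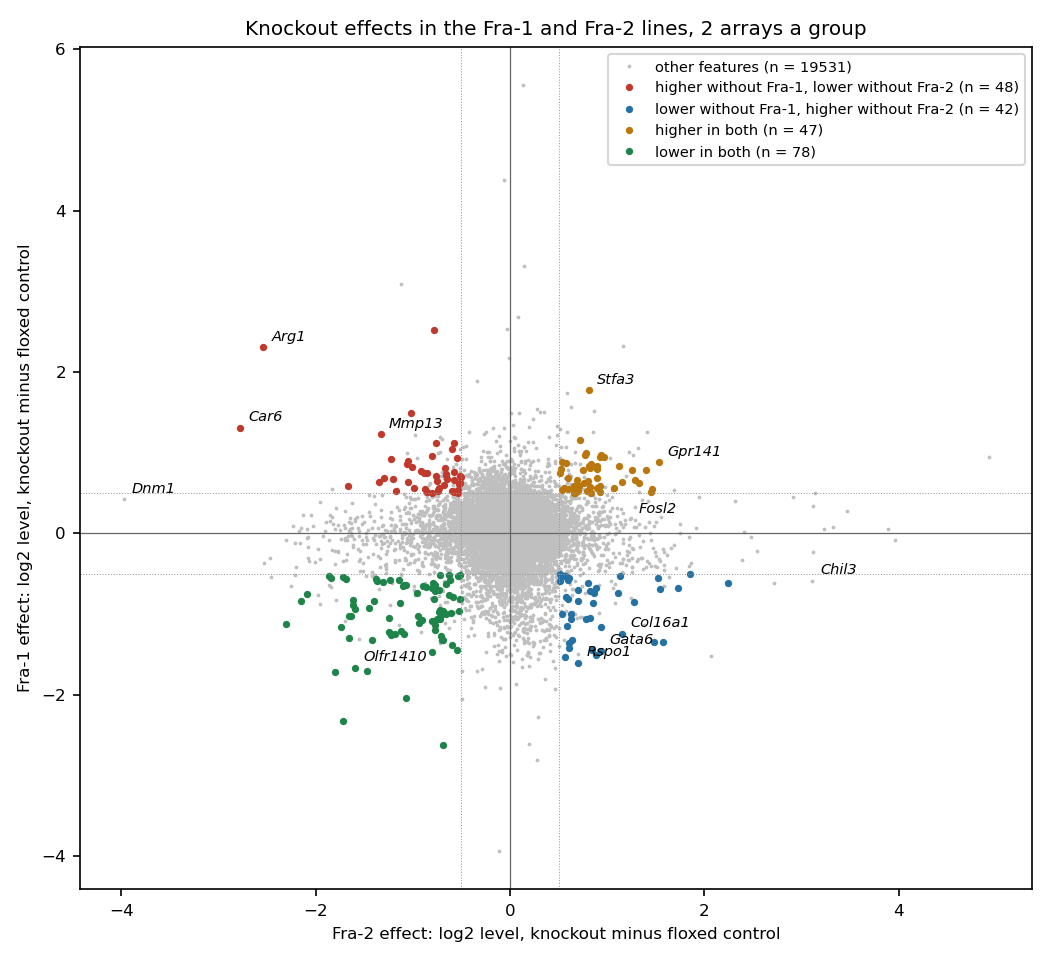
Effect of the Fra-2 deletion (horizontal axis) against that of the Fra-1 deletion (vertical axis), both as log2 level in knockouts minus controls, for 19746 features; dotted lines mark 0.5 on either side of 0. The 48 and 42 features of the opposite classes lie in the upper left and lower right and the 47 and 78 of the same-direction classes in the upper right and lower left, while most of the other 19531 features lie along an axis or near its crossing.

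The gene with the largest difference among those named was Arg1, the arginase that splits arginine into ornithine and urea and a classic marker of alternative macrophage activation. Its levels, as log2 signal relative to the array's 75th percentile, were 1.72 and 5.17 in Fra-1 controls and 6.03 and 5.48 in Fra-1 knockouts, against 5.96 and 6.16 in Fra-2 controls and 3.00 and 4.05 in Fra-2 knockouts. The knockout and control arrays did not overlap in either line, but the 2 Fra-1 controls lay far apart, and the higher of them was close to the knockouts. The effect was 2.31 ± 1.0 (SE, log2; 4.95-fold higher) without Fra-1 and -2.54 ± 1.0 (5.83-fold lower) without Fra-2, a difference of 4.85 (95% interval 1.5 to 8.20, adjusted p = 0.415). Without the first Fra-1 control the difference was 3.13, and without the second it was 6.57. Nos2, the inducible nitric oxide synthase that competes with arginase for arginine, differed in the same direction as Arg1. It read -3.02 and -2.39 in Fra-1 controls, -1.83 and -2.20 in Fra-1 knockouts, -0.53 and -0.17 in Fra-2 controls and -2.20 and -1.09 in Fra-2 knockouts. The effects were 0.69 ± 0.39 and -1.29 ± 0.39, and the difference was 1.98 (0.67 to 3.29, adjusted p = 0.408).

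Secreted enzymes and an EGF receptor ligand were among the other genes higher without Fra-1 and lower without Fra-2. Car6, a secreted carbonic anhydrase, read -1.39 and -0.29 in Fra-1 controls, 0.16 and 0.78 in Fra-1 knockouts, 4.57 and 4.19 in Fra-2 controls and 1.16 and 2.05 in Fra-2 knockouts. Both lines were separated, with effects of 1.31 ± 0.44 and -2.78 ± 0.44 and a difference of 4.09 (2.59 to 5.58, adjusted p = 0.258). Mmp13, a collagenase and a textbook AP-1 target, read -0.76 and 0.18 in Fra-1 controls, 1.01 and 0.88 in Fra-1 knockouts, 0.20 and 1.19 in Fra-2 controls and -1.42 and 0.14 in Fra-2 knockouts. Its second Fra-2 knockout lay only just below the lower Fra-2 control, and the difference of 2.56 (0.63 to 4.49, adjusted p = 0.452) was 1.78 without the first Fra-2 knockout and 3.34 without the second. Hbegf encodes the heparin-binding ligand of the EGF receptor. It read -0.21 and 0.67, then 1.22 and 1.05, in Fra-1 controls and knockouts, and -0.69 and -0.09, then -2.15 and -0.73, in Fra-2 controls and knockouts, a difference of 1.95 (0.28 to 3.62, adjusted p = 0.506). The Hbegf difference was 1.24 without the first Fra-2 knockout and 2.66 without the second.

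Cgref1, a secreted calcium-binding protein, had tighter arrays than Mmp13 or Hbegf. Its Fra-1 controls read -1.46 and -0.82 and its Fra-1 knockouts -0.25 and -0.18, while its Fra-2 controls read -0.16 and 0.34 and its Fra-2 knockouts -1.35 and -0.92. The effects of 0.92 ± 0.27 and -1.23 ± 0.27 gave a difference of 2.15 (1.23 to 3.06, adjusted p = 0.266), which stayed between 1.82 and 2.47 with any 1 array left out. Klk8, a kallikrein-family serine protease, had effects of 0.83 ± 0.49 and -1.0 ± 0.49. Its Fra-2 controls, at -0.15 and -1.61, were 1.46 apart, and its difference of 1.83 was 1.1 without the first of them and 2.57 without the second. Npas4, a transcription factor best known from active neurons, had effects of 0.96 ± 0.41 and -0.81 ± 0.41. Its knockouts read 1.5 and 0.38 in the Fra-1 line and -2.99 and -3.08 in the Fra-2 line, and the difference of 1.76 was 1.2 without the first Fra-1 knockout and 2.32 without the second.

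The 48 features of this class had a median effect of 0.70 without Fra-1 and -0.76 without Fra-2, and 37 of them carried a symbol. Their median level of 0.23 lay below the 0.82 of all features. Among members outside the naming rule, chosen after their values were seen, were S100a4 (a calcium-binding protein; 0.64 and -1.35) and Rgs1 (a regulator of G protein signalling; 0.71 and -0.76), with the effect without Fra-1 first. Upp1, encoding uridine phosphorylase, had effects of 0.59 and -1.67, but its Fra-2 knockouts read -1.78 and 0.56 against controls of 0.75 and 1.36, so that 1 array carried most of the latter. Gpr137b-ps and 1 olfactory receptor gene in the class have near-identical copies, so their probes may read more than 1 gene.

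The reverse class, lower without Fra-1 and higher without Fra-2, included Gata6, the transcription factor that specifies large resident peritoneal macrophages and is also made by mesothelial cells. Gata6 read 1.13 and 1.49 in Fra-1 controls, 0.25 and -0.54 in Fra-1 knockouts, 2.04 and 1.52 in Fra-2 controls and 3.03 and 2.41 in Fra-2 knockouts. The knockouts stood on opposite sides of their controls in the 2 lines, with effects of -1.45 ± 0.34 and 0.94 ± 0.34 and a difference of -2.39 (-3.52 to -1.26, adjusted p = 0.297). Tcf7l1, a TCF/LEF factor of the Wnt pathway, had the smallest adjusted p of either opposite class, at 0.191. It read -3.25 and -2.92 in Fra-1 controls, -4.19 and -4.30 in Fra-1 knockouts, -3.00 and -2.71 in Fra-2 controls and -2.02 and -1.81 in Fra-2 knockouts. The gaps between its groups were wide against the spread within them, the difference was -2.10 (-2.67 to -1.53), and leaving out any 1 array kept it between -2.26 and -1.94. Its Fra-1 knockouts lay near the floor, since the lowest levels well above background on those arrays were -4.45 and -4.485.

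Col16a1, a minor fibrillar-associated collagen, read 0.93 and 1.49 in Fra-1 controls, 0.31 and -0.38 in Fra-1 knockouts, -2.33 and -2.76 in Fra-2 controls and -1.05 and -1.75 in Fra-2 knockouts, a difference of -2.39 (-3.55 to -1.24, adjusted p = 0.297). Fst encodes follistatin, a secreted antagonist of activin. It read -2.75 and -1.92, then -3.53 and -3.22, in Fra-1 controls and knockouts, and -1.2 and -1.13, then -0.85 and 0.17, in Fra-2 controls and knockouts. The Fst effects were -1.05 ± 0.38 and 0.83 ± 0.38, and the second Fra-2 knockout carried most of the latter. The kinase gene Stk26 had effects of -1.06 ± 0.24 and 0.79 ± 0.24, Ndrg2 of -0.74 ± 0.28 and 1.11 ± 0.28, and the membrane protein gene Tmem8b of -0.73 ± 0.41 and 0.86 ± 0.41. The differences of these 3 genes were -1.85, -1.85 and -1.59, with adjusted p-values of 0.272, 0.297 and 0.517. Another Stk26 probe gave a difference of -1.20. Tmem8b was the least settled, at -1.02 without the first Fra-2 knockout and -2.17 without the second.

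Fibroblast and mesothelial marker levels also differed between knockouts and controls. The summed linear signal of the 18 fibroblast markers, relative to the 75th percentile, was 305 and 415 in Fra-1 controls and 180 and 127 in Fra-1 knockouts, against 6.59 and 11.7 in Fra-2 controls and 10.0 and 10.8 in Fra-2 knockouts. That of the 16 mesothelial markers on the array was 17.6 and 25.1, then 12.7 and 8.14, in the Fra-1 line, and 2.28 and 2.19, then 3.08 and 2.70, in the Fra-2 line. Both sums were lower in both Fra-1 knockouts than in both Fra-1 controls, and the mesothelial sum was higher in both Fra-2 knockouts than in both Fra-2 controls, whereas the fibroblast sums of the Fra-2 groups overlapped. The dermatopontin gene Dpt and the mesothelial marker Igfbp5 were above background on none of the 8 arrays. Of the fibroblast markers 7 were above background on all arrays, and 6 of these 7 had a negative effect without Fra-1 and a positive one without Fra-2, with a median difference of -1.66. None of the 7 was in the class. The part of these cells in the class was not tested. Sparc, Dcn and Col6a1, which encode matrix proteins of fibroblasts, had differences of -1.66, -1.58 and -1.79, although the 3 Sparc probes above background ranged from -1.66 to 0.49. All 8 mesothelial markers above background throughout had a negative difference, with a median of -0.99, and -0.63 without the first Fra-2 knockout. Among them Rspo1, a secreted Wnt agonist, had effects of -1.60 ± 0.33 and 0.70 ± 0.33, while Igfbp6 (-1.18 and 0.17) and Wt1 (-1.28 and 0.09) were lower in the Fra-1 knockouts with little difference in the Fra-2 line.

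The 42 features of the reverse class had a median effect of -0.82 without Fra-1 and 0.79 without Fra-2. They were dim, with a median level of -1.46 against 0.82 over all features. Among members outside the naming rule, chosen after its values were seen, was the ephrin receptor gene Epha2, with effects of -1.32 and 0.64.

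**Figure D2:**
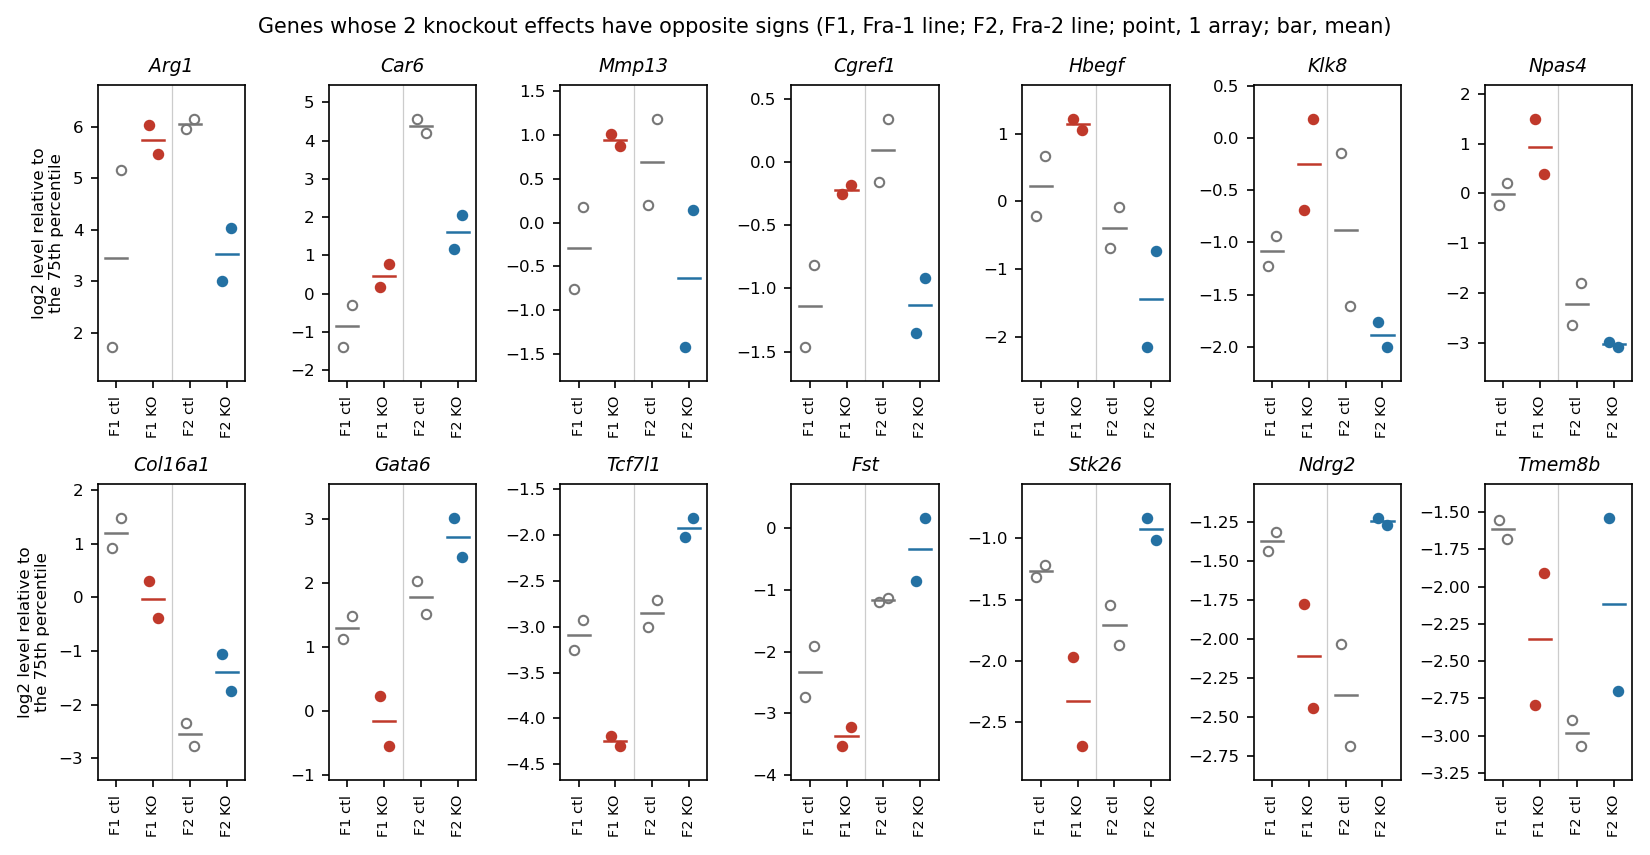
Log2 level relative to the array's 75th percentile in each of the 8 arrays (points) with group means (bars) for 7 genes higher without Fra-1 and lower without Fra-2 (top) and 7 with the reverse pattern (bottom); F1 and F2 are the Fra-1 and Fra-2 lines, ctl and KO the controls and knockouts, and each panel has its own scale. Knockout and control points do not overlap in either line, as the class rule requires, and for Arg1 the Fra-1 controls at 1.72 and 5.17 are the widest pair.

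The AP-1 motif was looked for in the 250 bases upstream of the annotated start of each gene, in RefSeq's GRCm38.p6 sequences, because the deleted proteins bind it. The motif searched was TGANTCA, which is its own reverse complement. It occurred in 435 of 9602 measured genes with such a sequence (4.53%) and in 6.87% of all 27025 sequences. Of the genes higher without Fra-1 and lower without Fra-2 it occurred in 3 of 23 (Cgref1, Mmp13 and Upp1), and of the reverse class in 2 of 26 (F11r and Sprr1a). Of the genes higher in both knockouts it occurred in 4 of 23, Slfn4 among them, and of those lower in both in 1 of 42. A match is a string of letters and shows no binding. Some of the stretches around the motif are printed 5′ to 3′ on the gene's strand, with the motif in capitals. The search fixed every letter of the motif but the middle one, so agreement of its copies is no result. Upp1, F11r, Sprr1a and Slfn4 were chosen after their values were seen.
Mmp13, chr9:7272452-7272511, plus strand: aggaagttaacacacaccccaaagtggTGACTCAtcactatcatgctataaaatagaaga
Cgref1, chr5:30945628-30945687, minus strand: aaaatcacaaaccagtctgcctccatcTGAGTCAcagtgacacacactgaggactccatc
Upp1, chr11:9117936-9117995, plus strand: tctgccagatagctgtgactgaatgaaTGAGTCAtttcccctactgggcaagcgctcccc
F11r, chr1:171437425-171437484, plus strand: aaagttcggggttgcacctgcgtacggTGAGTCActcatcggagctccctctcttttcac
Sprr1a, chr3:92485995-92486054, minus strand: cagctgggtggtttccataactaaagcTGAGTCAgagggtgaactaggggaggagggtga
Slfn4, chr11:83175125-83175184, plus strand: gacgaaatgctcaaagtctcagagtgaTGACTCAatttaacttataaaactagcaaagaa
The motif begins 35 bases before the start of Mmp13, 180 before that of Cgref1, 45 before that of Upp1, 109 before that of F11r and 34 before that of Slfn4. Sprr1a, a cornified envelope gene with effects of -1.36 and 0.60, has a pair of motifs, 146 and 116 bases before its start. TGACTCA and TGAGTCA are reverse complements, so the printed stretches all hold the same 7-base site and do not tell the classes apart. The copy before Th, a gene higher in both knockouts, is TGATTCA and is not printed.

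Ranked by the p of the difference rather than by class, the first named gene was Dnm1, encoding dynamin 1, a GTPase that pinches off membrane vesicles. It read 1.0 and 1.42 in Fra-1 controls, 1.83 and 1.44 in Fra-1 knockouts, 2.90 and 2.01 in Fra-2 controls and -1.69 and -1.35 in Fra-2 knockouts. Nearly all of the difference came from the Fra-2 line, where Dnm1 was 15.7-fold lower in the knockouts (-3.98 ± 0.32), against 0.43 ± 0.32 without Fra-1. In limma that Fra-2 effect had an adjusted p of 0.0378 and was 1 of the 5 Fra-2 calls, none of which remained with the slide term. The other adjusted p-values given by gene are of the difference or of the mean of both effects. The difference was 4.40 (3.33 to 5.47, adjusted p = 0.168) and stayed between 3.95 and 4.85 with any 1 array left out. These values are of the brighter of 2 Dnm1 probes above background throughout; the other read 0.38 and 0.48 in Fra-2 controls and 0.23 and 0.71 in Fra-2 knockouts, which overlapped, and its difference was 0.07. The Dnm1 result thus rests on 1 probe that the other does not share. Kcnn4, a calcium-activated potassium channel of activated leukocytes, differed in both lines. It read 3.14 and 3.5, then 4.05 and 3.86, in Fra-1 controls and knockouts, and 1.45 and 1.45, then 0.32 and 0.48, in the Fra-2 line, with effects of 0.64 ± 0.16 and -1.05 ± 0.16 and a difference of 1.68 (adjusted p = 0.239).

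Capn5, a calpain protease, and Ryr1, a calcium release channel, were lower in the Fra-2 knockouts, by 1.31 ± 0.14 and 1.23 ± 0.15 on the log2 scale, with effects of 0.10 and 0.27 in the Fra-1 line. Nudt16, a hydrolase of nucleotides and RNA caps, was the opposite case: it read 1.56 and 1.68 in Fra-1 controls and 2.75 and 2.80 in Fra-1 knockouts, an effect of 1.15 ± 0.13, against -0.15 ± 0.13 without Fra-2. Among the genes with a negative difference, Reck, a membrane-anchored inhibitor of matrix metalloproteinases, and Etl4 were chiefly lower without Fra-1, with effects of -1.08 ± 0.14 and -0.91 ± 0.13 against 0.34 and 0.40 without Fra-2. Bend6 and the small nucleolar RNA host gene Snhg3 were chiefly higher without Fra-2, with effects of 1.26 ± 0.15 and 1.75 ± 0.17. Snhg3 read 3.56 and 3.64 in Fra-1 controls and 3.65 and 3.55 in Fra-1 knockouts, so its Fra-1 groups overlapped. The adjusted p of each of these 7 genes was 0.239. That of Snhg3 was 0.0448 without the second Fra-2 knockout, and no other gene named here passed 0.05 under any alternative.

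**Figure D3:**
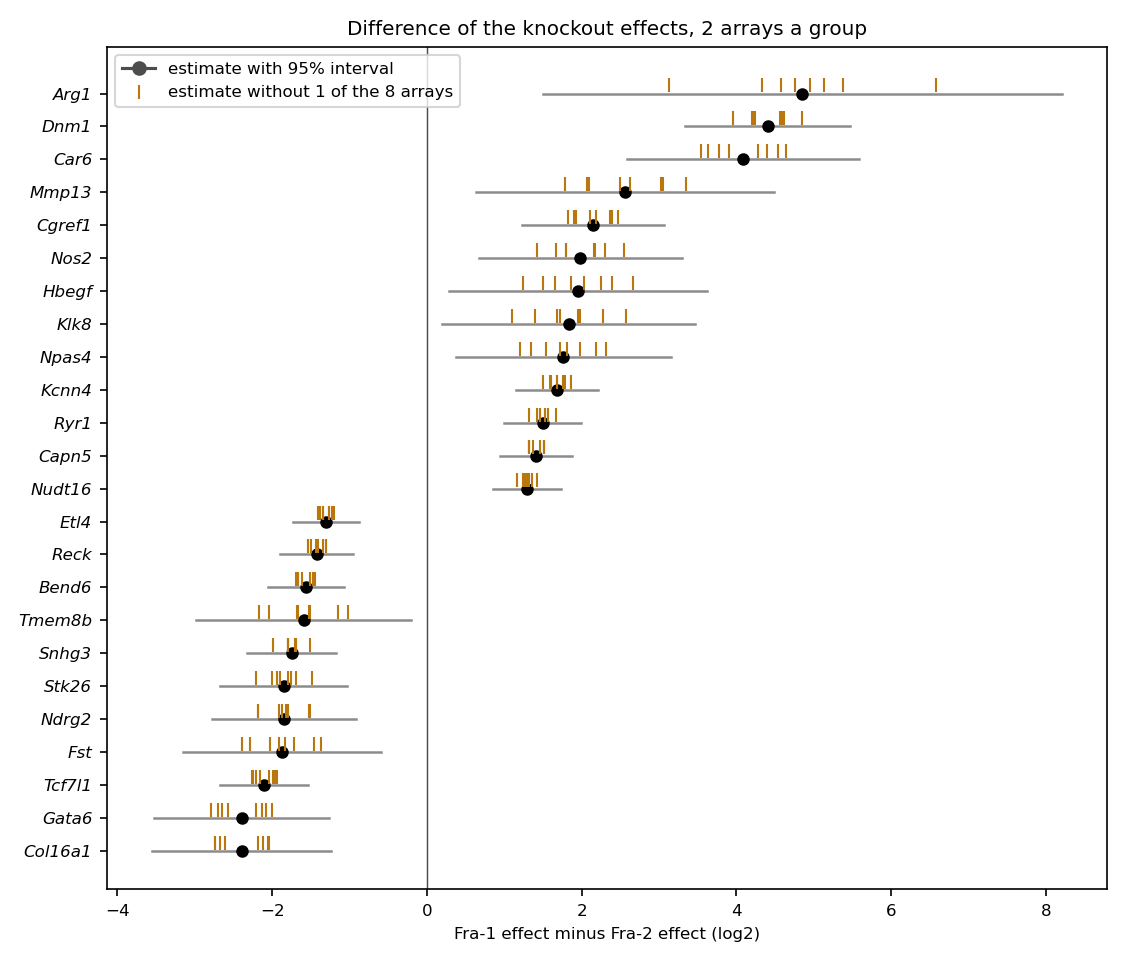
Difference of the effects, Fra-1 minus Fra-2, on the log2 scale for 24 named genes: points are estimates, lines unadjusted 95% intervals, and ticks the estimates without 1 of the 8 arrays. Each tick lies on the same side of 0 as its estimate, and the ticks of Arg1 spread from 3.13 to 6.57 while those of Dnm1, on the brighter of its probes, stay between 3.95 and 4.85.

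The class higher in both knockouts is described by the 7 genes that the naming rule took from it, with Plbd1 also among the smallest p of the mean effect. Alox15, the 12/15-lipoxygenase of resident macrophages, read -3.16 and -1.66 in Fra-1 controls, -1.49 and -1.38 in Fra-1 knockouts, 6.0 and 5.28 in Fra-2 controls and 6.81 and 6.35 in Fra-2 knockouts. The lines stood far apart, yet the effects were 0.98 ± 0.48 and 0.94 ± 0.48, with a mean of 0.96 (adjusted p = 0.569). Its mean effect was 0.58 without the first Fra-1 control and 1.33 without the second. Plbd1, a phospholipase B-like lysosomal protein, read 4.22 and 4.67, then 5.09 and 5.38, in the Fra-1 line, and 4.03 and 3.83, then 5.20 and 5.16, in the Fra-2 line. Its effects of 0.79 ± 0.19 and 1.25 ± 0.19 had a mean of 1.02 (adjusted p = 0.199). Slc2a6, a glucose transporter-family protein, read 4.04 and 4.19, then 4.79 and 5.12, without and with the Fra-1 deletion, and 5.76 and 6.33, then 6.66 and 7.06, in the Fra-2 line. Its effects of 0.84 ± 0.24 and 0.81 ± 0.24 were nearly equal.

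The transcription factor gene Runx3 (0.84 ± 0.36 and 0.89 ± 0.36), the orphan receptor gene Gpr141 (0.88 ± 0.35 and 1.53 ± 0.35) and Ramp3 (0.79 ± 0.31 and 1.4 ± 0.31), which modifies calcitonin-family receptors, were also higher in both, with mean effects of 0.87, 1.21 and 1.09 and adjusted p-values of 0.496, 0.331 and 0.326. Gpr141 had Fra-2 controls at -2.62 and -1.4, a wide pair. Stfa3, a stefin, was 1.77 ± 0.63 and 0.81 ± 0.63 higher, but belongs to a cluster of near-identical genes, so which of them its probe read is uncertain. Its mean effect of 1.29 was 0.56 on the first slide alone. The 47 features of this class had median effects of 0.66 and 0.81.

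The class lower in both knockouts had median effects of -0.95 and -0.96 over its 78 features. Uaca, an apoptosome-associated protein, read 1.21 and 1.47 in Fra-1 controls, 0.60 and 0.45 in Fra-1 knockouts, 2.08 and 1.99 in Fra-2 controls and 1.2 and 1.30 in Fra-2 knockouts. Its effects of -0.82 ± 0.14 and -0.79 ± 0.14 differed by -0.03 (95% interval -0.49 to 0.42), and the mean of both was -0.80 (adjusted p = 0.199). Ak1, an adenylate kinase, read 1.1 and 1.55, then 0.43 and 0.35, in the Fra-1 line and -0.63 and -0.46, then -2.21 and -2.06, in the Fra-2 line, with a mean effect of -1.26 (adjusted p = 0.199). Its effect was larger without Fra-2 (-1.59 ± 0.17) than without Fra-1 (-0.93 ± 0.17), by 0.66 at an adjusted p of 0.521. Fabp7, a fatty acid-binding protein, had a mean effect of -1.36 (adjusted p = 0.199) that came mostly from the Fra-2 line, -2.21 ± 0.25 against -0.51 ± 0.25, and its Fra-1 groups overlapped.

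Scaffold and adhesion genes were among the others. Dlg5, a scaffold of cell polarity, had effects of -1.16 ± 0.29 and -1.74 ± 0.29, with Fra-2 knockouts at -2.24 and -2.32 below Fra-2 controls at -0.22 and -0.86. Antxr1, a receptor for collagen and anthrax toxin, had effects of -1.12 ± 0.83 and -2.31 ± 0.83, and its Fra-2 arrays were spread widely, from -1.03 and 0.84 in controls to -3.57 and -1.24 in knockouts. The mean Antxr1 effect of -1.72 was -1.14 without the first Fra-2 knockout. Dpysl3, a cytoskeletal regulator, read 2.05 and 2.83, then 1.42 and 0.98, in the Fra-1 line and 1.34 and 1.99, then 0.06 and 0.83, in the Fra-2 line, with effects of -1.24 and -1.22. Treml1 (-1.32 and -1.42), a receptor of platelets and megakaryocytes, and Tesc (-1.23 and -1.24), a calcium-binding protein, had nearly equal effects as well. Szrd1 (-1.26 and -1.23) and Olfr1410 (-1.66 and -1.59) rested on controls that lay far apart in both lines. Those of Szrd1 read 4.81 and 3.67 in the Fra-1 line and 3.98 and 5.58 in the Fra-2 line. Those of Olfr1410 read 1.62 and -0.43, then 0.24 and 2.06. The first Fra-1 control and the second Fra-2 control were thus the higher ones for both genes, as for some other members of the class but not for Dpysl3. The olfactory receptor probe may also read related genes. Leaving out the first Fra-1 control moved the mean Olfr1410 effect from -1.63 to -1.12. The intervals of the difference for the same-direction genes were wide, such as -1.30 to 1.26 for Dpysl3 and -2.68 to 2.54 for Olfr1410, so equal effects were not shown.

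**Figure D4:**
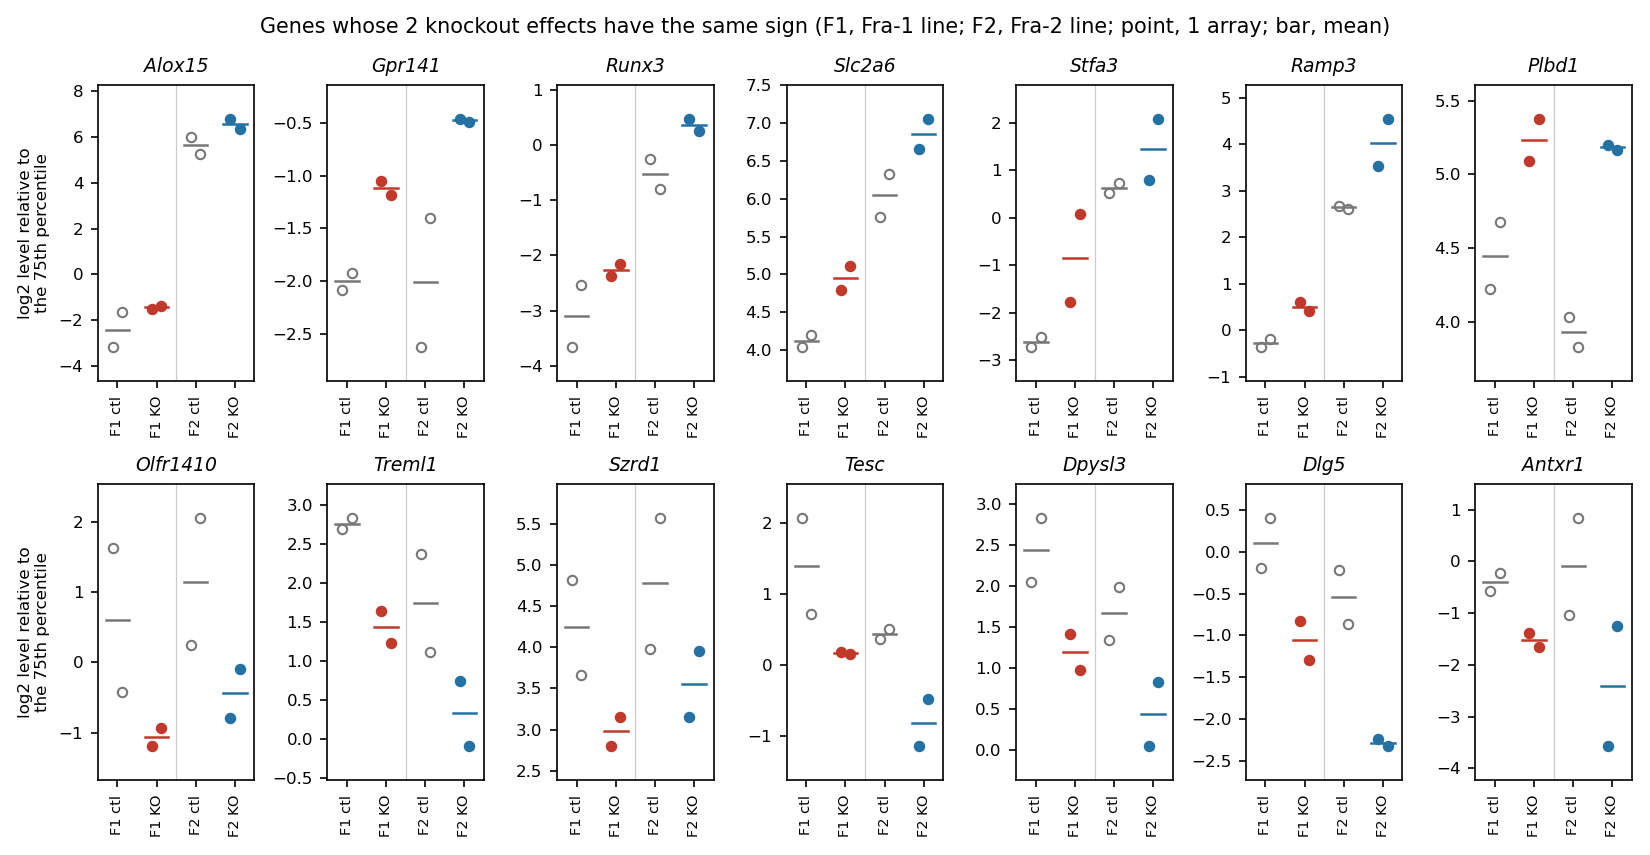
Log2 level relative to the array's 75th percentile in each of the 8 arrays (points) with group means (bars) for 7 genes higher in both knockouts (top) and 7 lower in both (bottom); F1 and F2 are the Fra-1 and Fra-2 lines, ctl and KO the controls and knockouts, and each panel has its own scale. Alox15 has a similar step in both lines from baselines far apart, at -3.16 and -1.66 in the Fra-1 controls and 6.0 and 5.28 in the Fra-2 controls, and Olfr1410 and Szrd1 have widely spaced controls.

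Cholesterol synthesis genes had effects of opposite sign in the 2 lines in most cases. Arrays were separated upward without Fra-1 and downward without Fra-2 for 13 of 23, where 6.1% of all features were. All 23 measured enzymes and regulators had a negative effect without Fra-2 and 20 of them a positive effect without Fra-1, against 6414 of 19746 features with that pair of signs. The median effect was 0.24 without Fra-1 and -0.44 without Fra-2, and the median difference 0.66, against 0.06 over all features. None passed the adjusted threshold, and 12 of 23 had an unadjusted p under 0.05 for a higher difference, where 5.57% of all features did. Sqle, the squalene epoxidase, read 3.79 and 3.94, then 4.45 and 4.41, in the Fra-1 line and 3.93 and 4.06, then 3.04 and 3.5, in the Fra-2 line, a difference of 1.29 (0.72 to 1.87, adjusted p = 0.272). Its controls stood at like levels in both lines and its knockouts on either side of them. Fdps, which makes farnesyl diphosphate, had effects of 0.41 ± 0.18 and -0.87 ± 0.18, and Idi1, the isopentenyl diphosphate isomerase, of 0.30 ± 0.13 and -0.57 ± 0.13.

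Of the LXR and lipid-handling list, the 3 genes with the smallest p differed mainly in the Fra-2 line. Nr1h3, encoding the oxysterol receptor LXRα, read 5.11 and 4.79, then 4.95 and 5.00, in the Fra-1 line and 3.17 and 3.56, then 1.2 and 1.72, in the Fra-2 line, with effects of 0.02 ± 0.22 and -1.90 ± 0.22. Its difference was 1.93 (adjusted p = 0.258). The fatty acid translocase Cd36 had effects of 0.18 ± 0.21 and -1.21 ± 0.21, and lipoprotein lipase, Lpl, of 0.08 ± 0.15 and -0.84 ± 0.15. Lpl differed by 0.92 on this probe and by 0.58 on another. Over the 20 measured LXR and lipid-handling genes the median difference was 0.19, between 0.06 and 0.31 with 1 array left out, with 4 higher and 2 lower at an unadjusted p under 0.05, where 5.57% and 3.46% of all features were.

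Of 19 measured hypoxia-responsive genes 12 had a positive effect without Fra-1 and a negative effect without Fra-2, against 6414 of 19746 features. The arrays of both lines were separated that way for 3 of the 19, where 6.1% of all features were. The median effects were 0.47 and -0.24, and 5 had a higher difference at an unadjusted p under 0.05, where 5.57% of all features did. The median difference was 0.61, 0.26 without the first Fra-2 knockout and 0.91 without the second. Car9, a membrane carbonic anhydrase, read 0.91 and 1.25, then 1.62 and 1.49, in the Fra-1 line and -0.97 and -1.01, then -1.53 and -1.4, in the Fra-2 line, a difference of 0.94 (0.45 to 1.44, adjusted p = 0.309). Its 2 effects were of equal size and opposite sign. The angiogenic factor Vegfa had effects of 0.92 ± 0.38 and -0.65 ± 0.38, and the oxygen-sensing prolyl hydroxylase Egln3 of 1.12 ± 0.49 and -0.76 ± 0.49. Egln3 in the Fra-1 controls read -0.46 and 0.82, and its difference of 1.88 was 1.24 without the first of them. Among 21 glycolytic genes 15 had the same pair of signs, with median effects of 0.28 and -0.16. Only 1 passed an unadjusted 0.05, where 9.02% of all features did. None had arrays separated that way in both lines, where 6.1% of all features did. The median difference of the glycolytic list was 0.41, with 0.20 without the first Fra-2 knockout and 0.81 without the second. Phosphoglycerate kinase, Pgk1, had effects of 0.66 ± 0.38 and -0.52 ± 0.38. Its Fra-2 groups overlapped, and its difference of 1.18 ran from 0.60 to 1.77 with 1 array left out. Of the 32 respiratory chain subunits 30 had a positive difference, but their median was 0.17, between 0.08 and 0.26 with 1 array left out, and none reached an unadjusted 0.05.

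Of 32 interferon-stimulated genes 28 had a positive difference, against 57.4% of all features, with median effects of 0.32 without Fra-1 and -0.10 without Fra-2, and 4 had a higher and 1 a lower difference at an unadjusted p under 0.05, where 5.57% and 3.46% of all features did. The median difference was 0.41, and 0.23 without the first Fra-1 knockout. Of 15 inflammatory cytokine and mediator genes 10 had a positive difference, and of 14 NF-kappaB feedback genes 6, with medians of 0.14 and -0.07 that each changed sign with single arrays left out (-0.28 to 0.51 and -0.30 to 0.20). Rsad2, encoding viperin, read 1.4 and 1.19, then 1.87 and 1.66, in the Fra-1 line and -0.83 and -1.55, then -1.75 and -1.70, in the Fra-2 line, a difference of 1.0 (adjusted p = 0.476). Xaf1 had effects of 0.52 ± 0.16 and -0.16 ± 0.16, while the exonuclease gene Isg20 was higher in both knockouts, 0.34 ± 0.13 and 0.88 ± 0.13. For antigen presentation 12 of 14 genes had a positive difference, with median effects of 0.34 and -0.14. Their median difference was 0.47, and 0.27 without the first Fra-1 control. The class II chain gene H2-Ab1 read 6.96 and 7.0, then 7.14 and 7.33, in the Fra-1 line and 8.05 and 8.25, then 7.5 and 7.55, in the Fra-2 line, a difference of 0.88 (0.45 to 1.31, adjusted p = 0.297). The costimulatory gene Cd80 went the other way, with effects of -0.15 and 0.39.

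Of 15 measured chemokine genes 10 had a positive effect without Fra-1 and a negative effect without Fra-2, against 6414 of 19746 features, with median effects of 0.28 and -0.33. Arrays were separated that way in both lines for 1 of the 15, near the 6.1% of all features. Their median difference was 0.47, and 0.88 without the second Fra-2 knockout. Ccl2, the main monocyte attractant, read 4.37 and 5.20, then 5.61 and 5.48, in the Fra-1 line and 2.76 and 2.99, then 2.22 and 2.37, in the Fra-2 line, a difference of 1.34 (adjusted p = 0.407). Ccl9 differed in the Fra-2 line, with effects of 0.38 ± 0.32 and -1.63 ± 0.32. Cxcl12, a stromal chemokine, ran against both: it read 1.29 and 2.38 in Fra-1 controls and -0.43 and -1.12 in Fra-1 knockouts, an effect of -2.61 ± 0.59, with 0.19 ± 0.59 in the Fra-2 line. The fibroblast marker sums given above differed between the Fra-1 groups in the same direction as Cxcl12, and their part was not tested. Of the 16 arginine, nitric oxide and polyamine genes 10 had the signs of Arg1, the median difference was 0.23, between 0.14 and 0.43 with 1 array left out, and ornithine decarboxylase, Odc1, differed by 0.52 (0.10 to 0.93).

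Of 14 alternative activation markers 10 had a positive and 4 a negative difference. Chil3, the chitinase-like Ym1, read 6.0 and 6.98, then 5.61 and 6.21, in the Fra-1 line, where the groups overlapped, and -0.30 and 0.16, then 3.56 and 2.51, in the Fra-2 line. Its effects of -0.58 ± 0.45 and 3.11 ± 0.45 gave a difference of -3.69 (adjusted p = 0.258), the reverse of Arg1. The mannose receptor gene Mrc1 was lower in both, -0.19 ± 0.13 and -0.69 ± 0.13. Beside Chil3, the neutrophil genes S100a9 (0.95 ± 1.04 and 4.93 ± 1.04) and Lcn2 (-0.33 ± 0.55 and 2.38 ± 0.55) also stood high in the Fra-2 knockouts. S100a9 read 3.09 and 0.23 in those knockouts, and its difference of -3.98 was -2.55 without the first and -5.41 without the second. Without Fra-2, 8 of 10 measured neutrophil markers had a positive effect, against 9387 of 19746 features, and 2 a negative one. Mmp9 was among the latter, with effects of 0.32 ± 0.64 and -1.80 ± 0.64. The summed signal of the 14 neutrophil markers on the array was 295 and 233 in Fra-2 knockouts against 248 and 228 in Fra-2 controls, which overlapped, and their part was not tested.

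Of 16 measured genes of macrophage fusion and resorption 13 had a positive difference, against 57.4% of all features, and 10 a negative effect without Fra-2. The median difference was 0.52, and 0.25 without the second Fra-2 knockout. Dcstamp, required for cell fusion, read 1.44 and 1.91, then 2.07 and 2.22, in the Fra-1 line and 2.86 and 3.35, then 1.43 and 1.88, in the Fra-2 line, a difference of 1.92 (1.09 to 2.75, adjusted p = 0.270). The proton pump subunit gene Atp6v0d2 had effects of -0.03 ± 0.21 and -1.67 ± 0.21 and the phosphatase gene Acp5 of -0.40 ± 0.18 and -1.29 ± 0.18. Among 17 matrix genes the signs were mixed, 8 positive and 9 negative. The elastase Mmp12 (0.46 and -1.07) and urokinase, Plau (1.08 and -0.49), had positive differences of 1.53 and 1.56, and the proteoglycan gene Vcan (-1.53 and 0.57) and the protease inhibitor gene Timp3 (-1.18 and 0.38) negative ones of -2.10 and -1.56. Vcan read -1.76 and -1.37, then -3.25 and -2.94, in the Fra-1 line and 2.18 and 2.55, then 2.63 and 3.23, in the Fra-2 line, so it was separated in both on this probe. A dimmer Vcan probe above background throughout had effects of -0.20 and 0.38 and a difference of -0.58.

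Of 17 measured AP-1 family genes 11 had a negative difference, with a median of -0.09 that ran from -0.21 to 0.00 with 1 array left out, changing sign without the first Fra-2 control, and Fosl2 was the only 1 under an unadjusted 0.05. The Fosl2 difference was -1.06 (-1.84 to -0.29, adjusted p = 0.432) on the brighter probe. The dimmer probe had the opposite sign but was not above background on all arrays, so it does not measure both effects. Jun had effects of 0.11 ± 0.16 and 0.55 ± 0.16, a difference of -0.43 (-0.96 to 0.10), and Batf3, a partner of Jun in dendritic cells, of 0.43 ± 0.18 and -0.10 ± 0.18. Of 17 immediate early genes 13 had a positive effect without Fra-2 and 10 without Fra-1, with medians of 0.39 and 0.06. Their median difference was -0.17, and -0.42 to -0.25 with 1 array left out. Egr1 read 1.22 and 1.57, then 1.09 and 1.07, in the Fra-1 line and 1.18 and 1.35, then 1.91 and 1.91, in the Fra-2 line, a difference of -0.95 (-1.45 to -0.46, adjusted p = 0.309). Nr4a2 had effects of -0.01 and 0.59, whereas Egr2 had effects of 0.06 and -0.77.

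General macrophage genes had no common direction. Over 19 measured members the median difference was 0.00, with 10 positive and 9 negative, and Lyz2, the lysozyme gene whose promoter drives LysM Cre, differed by 0.34 (-0.39 to 1.07, adjusted p = 0.752). Aif1 (0.39 and -0.56) and the tetraspanin gene Cd63 (-0.28 and -1.36) were the members with the smallest p. Among 20 large resident macrophage genes the counts were 10 and 10, with 5 lower and 0 higher at an unadjusted p under 0.05, where 3.46% and 5.57% of all features were, Gata6, Wt1 and C4b among the 5. C4b had effects of -0.47 and 0.20. The median difference of -0.14 ran from -0.78 without the second Fra-2 knockout to 0.16 without the second Fra-2 control. The summed signal of this list was 336 and 330, then 339 and 423, in the Fra-1 line and 2139 and 2060, then 2473 and 2311, in the Fra-2 line. So the sum was higher in both knockouts of each line while Gata6 was lower without Fra-1.

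Of 25 genes of the unfolded protein and amino acid stress responses 20 had a positive difference, with a median of 0.30 (0.19 without the second Fra-1 knockout), including the serine synthesis gene Psat1 (0.29 and -0.85) and the chaperone genes Calr (0.33 and -0.25) and Sdf2l1 (0.36 and -0.40). Nrf2 targets had a median of -0.21 with 11 of 17 negative, and ran from -0.41 to 0.09 with 1 array left out, changing sign without the first Fra-2 control or the second Fra-2 knockout, although haem oxygenase, Hmox1, was lower in the Fra-2 knockouts (0.07 and -0.67). The medians of the cell cycle and lysosomal lists, -0.07 and -0.02, changed sign with single arrays left out (-0.31 to 0.13 and -0.12 to 0.08). Among 36 cell cycle genes 21 had a negative effect in both lines, against 3945 of 19746 features. Only 1 of the 36 had arrays separated downward in both lines, where 2.45% of all features did. Cdc20 had effects of -0.81 ± 0.21 and -0.06 ± 0.21. The cytokine gene Osm had effects of -0.07 and 1.16, and its difference of -1.23 had an adjusted p of 0.50.

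**Figure D5:**
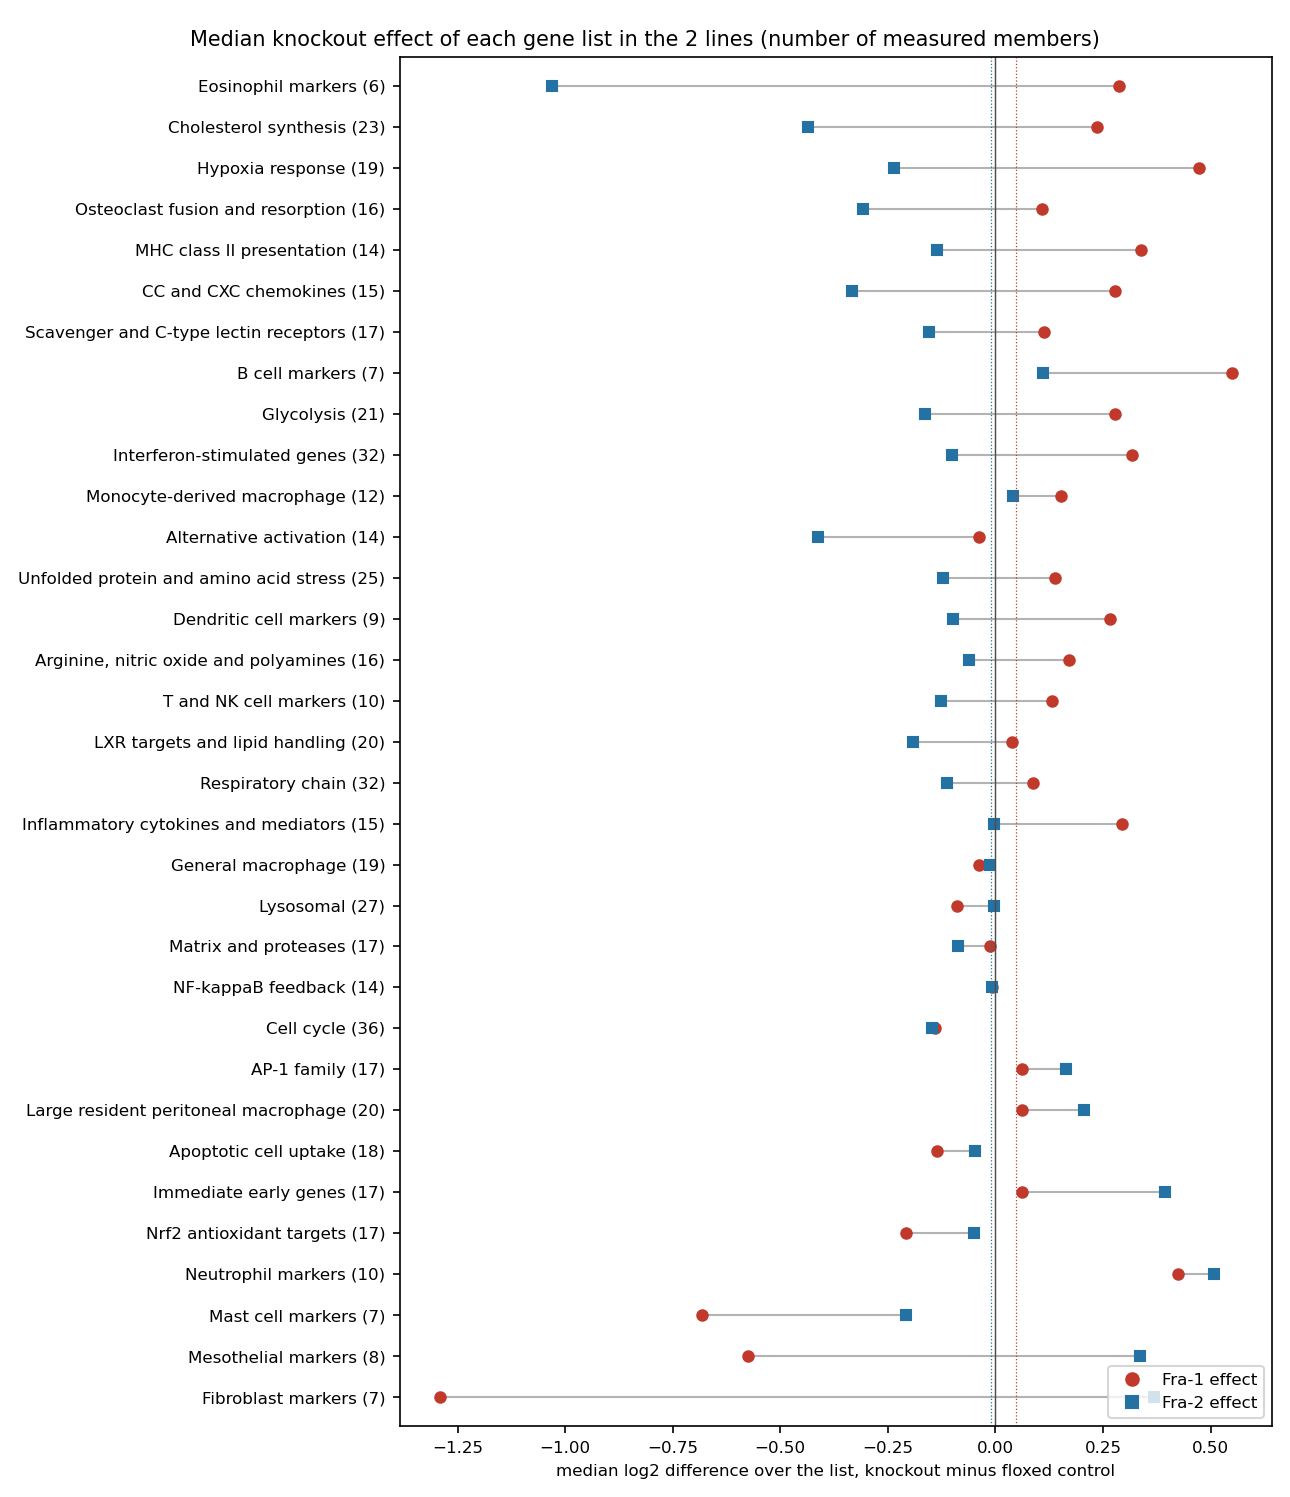
Median effect of each gene list without Fra-1 (circles) and without Fra-2 (squares), in log2 units on the horizontal axis, for the 33 lists, ordered by the median difference of the effects; the number of measured members is in parentheses, and dotted lines mark the medians over all features. Cholesterol synthesis, hypoxia, chemokine and class II lists have circles right of 0 and squares left of it, and fibroblast and mesothelial markers the reverse.

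Markers of other cell types were measured in the same way. Among 7 measured mast cell markers 6 had a negative effect in both lines, against 3945 of 19746 features, but none had arrays separated downward in both. Hdc, which makes histamine, was 1.85 ± 0.32 higher in the Fra-2 knockouts against -0.04 ± 0.32 without Fra-1. The summed mast cell signal was 145 and 49.1 in Fra-2 controls and 62.4 and 124 in Fra-2 knockouts, so the replicates of a group differed more than the groups, and 1.54 to 3.00 in the Fra-1 line. All 6 eosinophil markers had a positive difference, with a median of 1.2, which was 0.40 without the first Fra-2 control and 2.00 without the second. Ccr3 (1.0 ± 0.97 and -1.06 ± 0.97) and Siglecf (-0.00 ± 0.45 and -1.1 ± 0.45) owed their values to single arrays, since Ccr3 in Fra-2 controls read 0.29 and -2.70 and in Fra-1 controls -2.22 and -0.31. The defining eosinophil gene Epx was above background on none of the arrays, and Ear1 and Ear2 are near-identical copies. B cell and dendritic cell markers had median differences of 0.43 and 0.30, with none of their 7 and 9 measured members under an unadjusted 0.05. The B cell median ran from -0.12 to 1.02 with 1 array left out, changing sign without the first Fra-1 control, the first Fra-1 knockout or the first Fra-2 control, and the dendritic cell median from 0.08 to 0.61.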

How the data were processed

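Peritoneal macrophage RNA was hybridised to 8 single-colour Agilent arrays, 1 per mouse and 2 per group, with 59305 spots that are not controls. Per the file headers, the deposited intensity values (processed signal) and the flags for well above background and outliers came from Agilent Feature Extraction 11.5.1.1. Signals were put on a log2 scale here, minus each array's 75th percentile; the authors' deposited log2 values, centred per probe, served as an alternative. Outlier spots were left out and spots of a probe averaged. Symbols came from RefSeq's GRCm38.p6 table by accession (28026 of 55681 probes); where a gene had several kept probes the brightest stood for it. Effects were fitted over all 19746 features in limma 3.58.1 (lmFit, eBayes; R 4.3.3) with 4 group means and Benjamini-Hochberg adjustment, and tested on simulated data: 23, 173, 237 and 250 of 250 features were found at differences of 1, 2, 4 and 8 log2 units. The 2 mice a group limit the precision. The p-values rest on a within-group spread pooled over the 4 groups, with 4 residual degrees of freedom. limma moderated that spread with a prior over all features, of 2.79 degrees of freedom.

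Members and lists were chosen with earlier results of these data known. Named genes were Fosl1, Fosl2, Lyz2, Arg1 and Nos2, the 10 with the smallest p of the difference and the 5 with the smallest p of the mean effect, 7 per direction class with the largest smaller effect, and up to 3 per list, from which the text draws. Alternatives varied normalization, background correction, dim-probe filter, outlier spots, probe choice, slide, prior, fold limit and arrays.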

Additional observations from a re-analysis of the deposited data

Results flagged for a closer look

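The 46 results below are named genes whose 2 knockout arrays lay above both controls in 1 line and below both controls in the other. This separation of single arrays is no test of the difference, and limma's adjusted p for each difference was above 0.05. Values are the Fra-1 effect minus the Fra-2 effect on the log2 scale, and groups of 2 arrays are too small for a check for outlying arrays. For Dnm1 they are of the brighter probe, and the other probe's difference was 0.07; a dimmer Vcan probe gave -0.58.

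Positive differences, with the gene higher without Fra-1 and lower without Fra-2, were found for 30 genes. Among genes of secreted proteins they were Hbegf (1.95), Ccl2 (1.34), Mmp12 (1.53), Mmp13 (2.56), Plau (1.56), Klk8 (1.83), Cgref1 (2.15) and Car6 (4.09). Among enzymes they were Arg1 (4.85), Nos2 (1.98), Odc1 (0.52), Car9 (0.94), Egln3 (1.88), Fdps (1.27), Idi1 (0.87), Sqle (1.29), Psat1 (1.14) and Nudt16 (1.30). Among immune and fusion genes they were Aif1 (0.95), Batf3 (0.52), Dcstamp (1.92), Fcgr1 (0.50), H2-Ab1 (0.88) and Rsad2 (1.0). Among the remaining genes they were Calr (0.58), Sdf2l1 (0.76), Kcnn4 (1.68), Ryr1 (1.5), Dnm1 (4.40) and Npas4 (1.76).

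Negative differences, with the gene lower without Fra-1 and higher without Fra-2, were found for 16 genes. Among genes of matrix and secreted or surface proteins they were Col16a1 (-2.39), Dcn (-1.58), Vcan (-2.10), Timp3 (-1.56), Reck (-1.42), Rspo1 (-2.31), Fst (-1.87) and C4b (-0.68). Among the other genes they were Bend6 (-1.56), Egr1 (-0.95), Etl4 (-1.31), Gata6 (-2.39), Ndrg2 (-1.85), Stk26 (-1.85), Tcf7l1 (-2.10) and Tmem8b (-1.59).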

How the results depend on the processing

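With 2 arrays a group, most differences of 1 log2 unit or less were not detectable at the adjusted threshold. Dim probes limit the second opposite class. No paired analysis was possible because the labels give the groups no shared replicate numbers. The 2 slides do pair the Fra-2 arrays, and the slide term below is the fit with that block. Every probe as a feature, and median signals for normexp, were chosen after seeing the data. Over 100 named genes none reversed under the alternatives, and only Snhg3 crossed the threshold. Single probes of a named gene were not among those alternatives, and the 3 Sparc probes ran from -1.66 to 0.49. Most named genes were chosen for a small p or a large effect, which favours stable signs.

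Features differing between the effects (0) numbered 1 under normexp, 1 with the filter on at least 1 group and 1 with every probe; the mean effect (0) gave 1 under normexp. The Fra-1 effect (0) gave 3 with the 1-group filter and 1 with every probe. The Fra-2 effect (5) gave 21 under normexp, 1 with the 1-group filter, 0 without a filter, 0 with a slide term, 55 with a trended prior, 1 against a limit of 0.5 and 10 with every probe. Classes are given as up without Fra-1 and down without Fra-2, the reverse, up in both and down in both: 30, 22 and 24 (first 3) under normexp, 167, 248, 121 and 295 with the 1-group filter, 353, 544, 3621 and 459 without a filter, 182, 319, 99 and 170 on slide 1 alone, 315, 173, 231 and 199 at a limit of 0.25, 13, 11, 16 and 34 at 0.75, and 4, 3, 0 and 18 at 1. Pearson's r was 0.15 without a filter, 0.11 with a slide term and -0.11 on slide 1, and rho 0.21, 0.00072 and -0.16. The interferon median was 0.73 on slide 1; the cholesterol median was 0.55 under normexp, 0.55 without a filter, 0.55 with a slide term and 0.74 on slide 1. Filters change which features are tested, and the other causes were not tested.

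Leaving out 1 array gave 0 to 16 calls for the difference, 0 to 18 for the mean, 0 to 2 for Fra-1 and 0 to 109 for Fra-2. The classes held 27 to 164, 48 to 242, 33 to 87 and 76 to 199 features. Pearson's r ranged from -0.0672 to 0.0798 and rho from -0.100 to 0.0447. List medians ranged from 0.50 to 0.77 for cholesterol, 0.20 to 0.81 for glycolysis, -0.0163 to 0.357 for monocyte-derived and -0.12 to 0.10 for general macrophage genes.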
